A study of Mus musculus with 8 samples.

Results

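The Serpina3 genes of the mouse are a group of closely related genes on chromosome 12 that correspond to a single human gene, SERPINA3, the gene of the plasma protein alpha-1-antichymotrypsin. The 5 genes described here are Serpina3a, Serpina3g, Serpina3k, Serpina3m and Serpina3n, each with 1 probe on the array out of 24048 probes. They are 5 of the 7413 genes that could be named. A probe was taken as a gene's when the number inside its identifier was that gene's NCBI Gene ID. The group was chosen by its signals in these 8 livers, transgenic against wildtype, so its members' levels and differences are given as a description and without a test. In the RefSeq gene order the Serpina genes of chromosome 12 number 28, of which 14 belong to the Serpina3 group, 10 of them annotated as protein coding. The other 9 genes of the group were not analysed here. Gene identity rests on the Gene ID alone, and because the probes' sequences were not used, signal from one paralog at another's probe cannot be told apart from the named gene's own.

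Serpins are protease inhibitors that offer the attacking protease a bait loop and trap it when the loop is cut. Hepatocytes make many of them for the plasma, and antichymotrypsins of the A3 group are known as acute phase proteins, whose synthesis in the liver responds to interleukin-6, glucocorticoids and other signals of inflammation. In mice the group has expanded by gene duplication, and its members differ in the bait loop and hence in the proteases they inhibit.

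Liver RNA was measured in 8 male mice aged 23 weeks, with 1 array per animal. Of these, 4 were Gpx3 transgenic and 4 were B6/DBA wildtype. All of them had chow with 4% fat up to week 11 and with 6% fat from then on. The promoter that drives the Gpx3 transgene, the strain background of the transgenic animals and the share of B6 and DBA alleles in any animal were not given in the sources used here, and Gpx3 itself was not measured by a probe that could be named.

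The signals are deposited, background-subtracted intensities on a linear scale, with 33.1% to 35.3% of an array's values below 0. For the comparison, values below a floor of 16 units were set to 16 and log2 was taken, and 14759 probes with a mean above the lower quartile were tested with limma. None of them reached a Benjamini-Hochberg adjusted p under 0.05 (0%), and 1006 (6.82%) had an unadjusted p under 0.05. Transgenic liver 2 had the lowest median signal, 11.0 units, against 12.2 to 14.2 units in the other 7 livers, and its brightest probe read 47379 units against 49938 to 59796 units. At 5968 probes with a mean above 100 units it was the highest or lowest liver at 20.8%, within the 14.4% to 36.9% of the other livers. It was the lowest at 14.3%, against 7.74% to 17.1% in the others, and the highest at 6.42%, against 5.46% to 19.8%. It is named at many of the values it decided, but a range given without its name may also end at this liver. Hepatocyte markers were bright, with Apoa1, the main protein of high density lipoprotein, at 33749 to 37065 units.

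RefSeq promoter sequence is shown for 3 of the 5 members, Serpina3a, Serpina3g and Serpina3n, so that the member with separate groups, Serpina3n, can be set beside its paralogs. Serpina3k and Serpina3m are named only. Each window runs 5′ to 3′ on the plus strand of GRCm38.p6, the C57BL/6J reference, from 250 bases before to 50 after the annotated start, and capitals mark matches to the STAT motif TTCNNNGAA, the NF-kB motif (GGG, any 2 bases, then TTTCC) and the TATA box TATAAA. The windows are chr12:104112474-104112773 for Serpina3a, chr12:104235897-104236196 for Serpina3g and chr12:104406458-104406757 for Serpina3n.
Serpina3a: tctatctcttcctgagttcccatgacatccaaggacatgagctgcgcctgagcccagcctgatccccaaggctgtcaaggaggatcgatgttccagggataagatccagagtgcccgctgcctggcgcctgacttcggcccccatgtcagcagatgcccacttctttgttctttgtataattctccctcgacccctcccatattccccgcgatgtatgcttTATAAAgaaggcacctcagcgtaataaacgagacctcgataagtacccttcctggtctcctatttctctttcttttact
Serpina3g: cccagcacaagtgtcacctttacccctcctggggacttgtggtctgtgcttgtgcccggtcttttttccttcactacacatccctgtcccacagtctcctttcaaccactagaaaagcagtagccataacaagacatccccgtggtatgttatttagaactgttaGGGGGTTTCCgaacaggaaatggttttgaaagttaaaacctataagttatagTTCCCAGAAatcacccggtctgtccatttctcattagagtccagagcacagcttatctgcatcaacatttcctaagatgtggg
Serpina3n: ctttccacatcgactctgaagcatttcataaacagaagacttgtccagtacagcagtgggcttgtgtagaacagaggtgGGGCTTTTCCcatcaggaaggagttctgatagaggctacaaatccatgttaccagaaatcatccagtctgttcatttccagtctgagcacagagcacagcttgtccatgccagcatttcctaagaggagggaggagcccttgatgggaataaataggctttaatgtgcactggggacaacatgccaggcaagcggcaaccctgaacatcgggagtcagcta

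The Serpina3n window held an NF-kB match, GGGCTTTTCC, whose first base lies at -171 from the start, counted from -1 for the base before it. NF-kB is a transcription factor of inflammatory signalling. The Serpina3g window held an NF-kB match at -85 (GGGGGTTTCC) and a STAT match at -33 (TTCCCAGAA). STAT proteins carry cytokine and growth hormone signals to promoters. NF-kB motifs stood in 1.63% and STAT motifs in 8.3% of 32851 mouse promoter windows of the same length, both strands searched. The loose C/EBP motif TTNNGNAA was present at -227 and -56 in Serpina3n and at -80, -62 and 35 in Serpina3g, where the one at -80 overlaps the NF-kB match, and it is in 40.7% of all windows. The core of glucocorticoid receptor sites, TGTTCT on either strand, stood at -183 in Serpina3n and at -84 in Serpina3a, against 19.0% of all windows. A TATAAA box on the gene's strand stood at -29 in Serpina3a, with 8.32% of all windows holding one. The Serpina3g and Serpina3n windows were identical at 147 of 205 aligned bases (71.7%), while the Serpina3a window gave no alignment of useful length with that of Serpina3n. These matches are letters in the reference sequence, and binding was not measured.

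Among the members, Serpina3n was the one whose deposited signal was higher in every transgenic liver than in any wildtype liver, which did not hold with the arrays' medians aligned. Serpina3m, its neighbour in the gene order, had a lower mean in transgenic livers with overlapping groups. Serpina3k and Serpina3g had near-equal means in both groups, and Serpina3a was not measurable. All but Serpina3a passed the filter on low values.

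Serpina3n encodes an acute phase antichymotrypsin that inhibits neutrophil elastase and granzyme B. Its probe read 11167, 12357, 9921 and 9461 units in transgenic livers 1 to 4, against 8901, 7066, 9255 and 6683 units in wildtype livers 1 to 4. The highest value was that of transgenic liver 2 and the lowest were those of wildtype livers 4 and 2, and the gap between the groups, from 9461 units in transgenic liver 4 to 9255 units in wildtype liver 3, was small against the spread within either group. The transgenic mean was 10727 ± 1304 units, against a wildtype mean of 7976 ± 1290.0 units (SD, n = 4 each). The fold on the log2 scale was 1.35, a log2 difference of 0.43 ± 0.14 (SE). The groups did not overlap at 526 (3.56%) of all tested probes, and at 256 (1.73%) the transgenic livers were the higher ones. Since these values chose the member, nothing is read from its place among them. With the arrays' medians aligned, 2 livers of different groups were equal to 2 decimals (13.2 on the log2 scale) and the groups overlapped. They stayed apart after quantile normalization, cyclic loess and normexp correction, and the log2 difference lay between 0.35 and 0.51 when any single liver was left out.

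Serpina3m is a liver-expressed member of the group. Its probe read 5149, 2875, 5636 and 5486 units in transgenic livers 1 to 4, against 4852, 8045, 5656 and 7836 units in wildtype livers 1 to 4. In 5 of the 8 livers the signal lay between 4852 and 5656 units. Transgenic liver 2 stood below these, and wildtype livers 2 and 4 stood above them, so that the highest liver was 2.80-fold over the lowest. The transgenic mean was 4786 ± 1290.3 units, against a wildtype mean of 6597 ± 1588 units (SD, n = 4 each). The log2 difference was -0.48 ± 0.26 (SE), and without transgenic liver 2 it was -0.25.

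Serpina3k encodes a plasma serpin that binds tissue kallikrein. Its probe read 21165, 15251, 21830 and 22235 units in transgenic livers 1 to 4, against 20618, 21822, 21137 and 19686 units in wildtype livers 1 to 4. The 7 livers other than transgenic liver 2 lay within 19686 to 22235 units, and transgenic liver 2 alone was lower. The transgenic mean was 20120.2 ± 3276 units, against a wildtype mean of 20816 ± 900.3 units (SD, n = 4 each). The log2 difference of -0.06 ± 0.13 (SE) turned to 0.06 without transgenic liver 2, so no direction is given.

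Serpina3g encodes an intracellular serpin that inhibits lysosomal cathepsins and is known from leukocytes. Its probe read 209, 163, 199 and 345 units in transgenic livers 1 to 4, against 200.1, 289, 203 and 230.1 units in wildtype livers 1 to 4. Transgenic liver 4 was the highest and transgenic liver 2 the lowest, and all wildtype values lay between them. The transgenic mean was 229 ± 79.7 units, against a wildtype mean of 231 ± 41.1 units (SD, n = 4 each), with a log2 difference of -0.05 ± 0.24 (SE). It was -0.27 without transgenic liver 4 and 0.09 without transgenic liver 2, so no direction is given here either. In bulk liver, fewer cells that express a gene and less of its RNA in each cell cannot be told apart.

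Serpina3a was below the floor of 16 units in all 8 livers. Its probe read -29.8, -8.5, -31.9 and -21.9 units in transgenic livers 1 to 4, against -10.4, -11.7, -7.5 and 1.1 units in wildtype livers 1 to 4. These values give no level and no fold, and the probe was not tested.

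**Figure D1:**
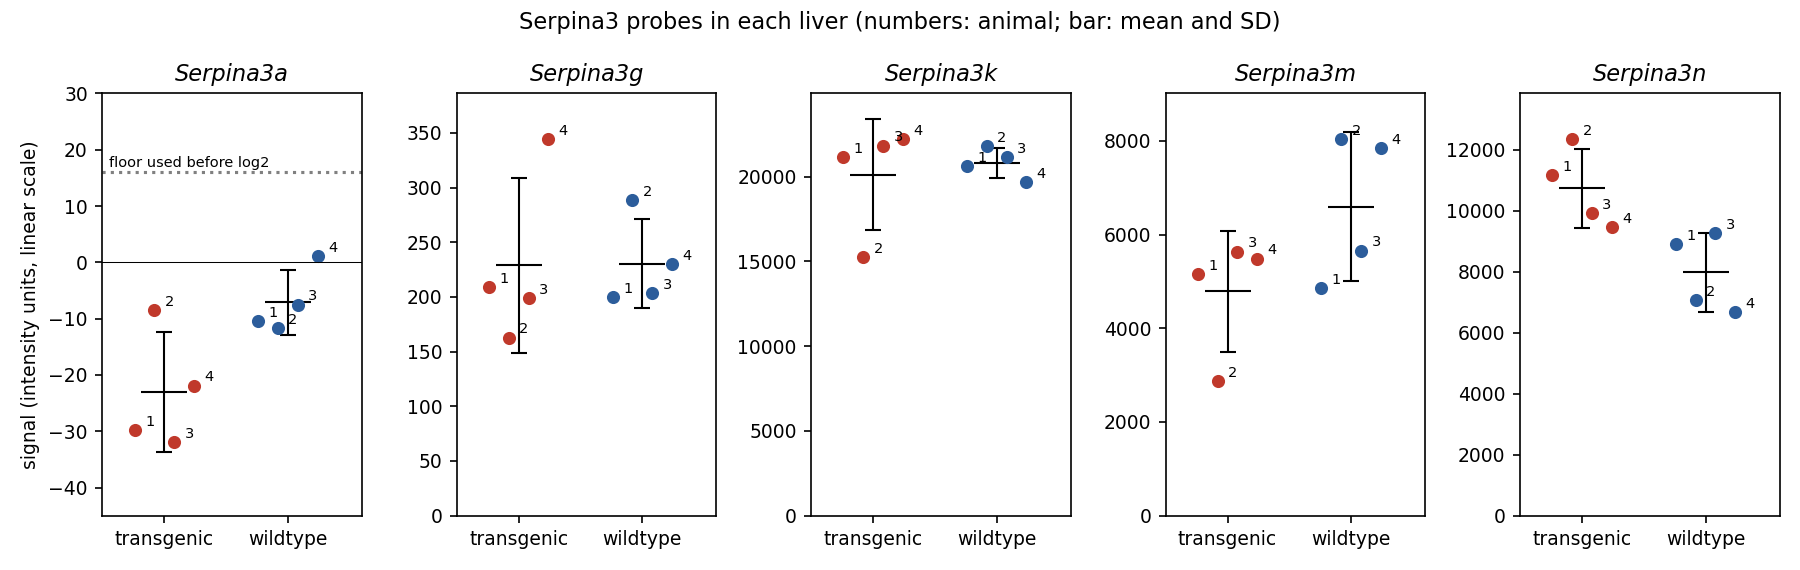
Signal of the 5 Serpina3 probes in each liver, in intensity units on a linear scale that differs between panels, with transgenic livers in red and wildtype livers in blue; numbers name the animal, and bars give the mean and SD of 4 livers. Serpina3n as deposited was at 9461 units or more in transgenic livers and at 9255 units or less in wildtype livers, which overlap once array medians are aligned, and Serpina3a lay below the floor of 16 units (dotted line) in all 8.

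**Figure D2:**
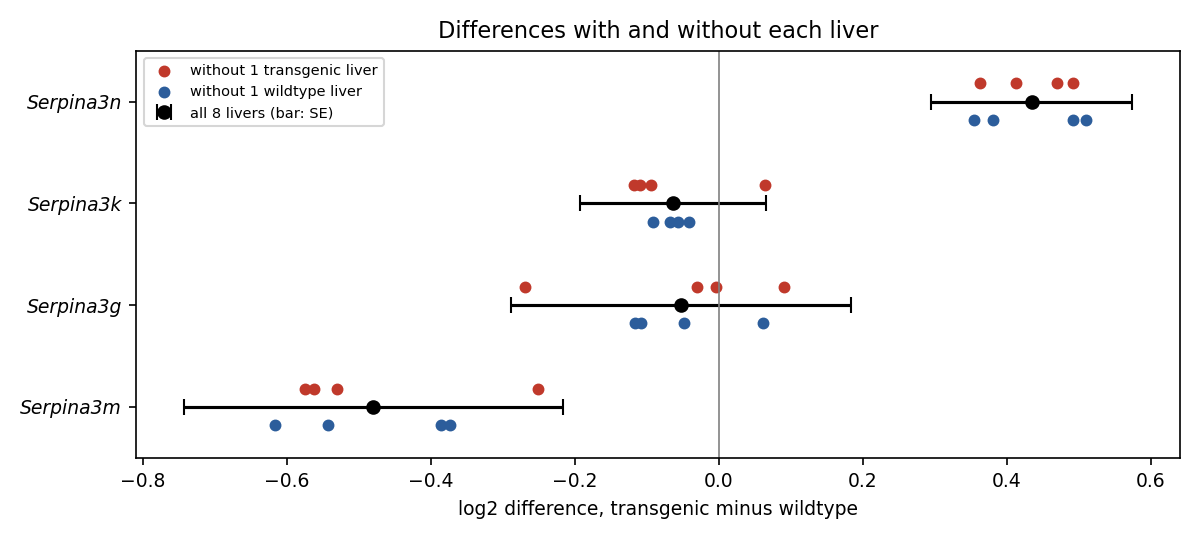
Log2 difference of the 4 measurable Serpina3 probes, transgenic minus wildtype; black points use all 8 livers with the SE as a bar, and coloured points leave out 1 transgenic (red) or 1 wildtype (blue) liver. Serpina3n stayed between 0.35 and 0.51 and Serpina3m between -0.62 and -0.25, while Serpina3k and Serpina3g crossed 0.

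Serpina3m and Serpina3n had opposite ends across the livers. Transgenic liver 2 had the lowest Serpina3m and the highest Serpina3n, and wildtype livers 2 and 4 had the highest 2 signals of Serpina3m and the lowest 2 of Serpina3n. Pearson's r of their log2 signals over the 8 livers was -0.89 (Spearman's rho -0.71), between -0.93 and -0.85 with any 1 liver left out, and -0.83 in the 6 livers left without transgenic liver 2 and wildtype liver 2. The points share their array and both groups, and r is given as a description. In the 5 livers of middle Serpina3m signal, Serpina3n read 9461 to 11167 units in 3 transgenic and 8901 to 9255 units in 2 wildtype livers.

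Serpina3k followed Serpina3m with an r of 0.73 over the 8 livers, which rested on transgenic liver 2 and was -0.22 without it. Serpina3g had an r of 0.61 with Serpina3m, which was 0.35 without transgenic liver 2, 0.90 without transgenic liver 4 and 0.97 in the 6 livers left without transgenic liver 4 and wildtype liver 2. Its r with Serpina3n was -0.51, with -0.29, -0.82 and -0.80 in the same subsets. Both relations of Serpina3g thus changed in size with 1 liver left out. Transgenic liver 4, the highest for Serpina3g, lay near the middle for Serpina3m and Serpina3n.

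The other Serpina genes of the chromosome were looked at for the same order of livers. Of 14 such genes 8 had a named probe. Serpina11, a serpin gene that lies between the Serpina1 and the Serpina3 genes, read 1976, 2721, 1797 and 1513 units in transgenic livers 1 to 4, against 1608, 431, 1686 and 579 units in wildtype livers 1 to 4. As for Serpina3n, transgenic liver 2 was the highest and wildtype livers 2 and 4 were the lowest. It averaged 2002 ± 516 units in transgenic livers, against 1076 ± 663 units in wildtype ones (SD, n = 4 each), with an adjusted p of 0.731 in limma. Its r was 0.94 with Serpina3n, between 0.92 and 0.96 with any 1 liver left out, and -0.86 with Serpina3m.

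Serpina12, which encodes the secreted serpin vaspin, had its lowest and highest livers in common with Serpina3m at its bright probe. That probe read 3360.2, 18.4, 4740.2 and 3241 units in transgenic livers 1 to 4, against 4475, 6952, 4015 and 6627 units in wildtype livers 1 to 4. Transgenic liver 2 stood just above the floor, and wildtype livers 2 and 4 were again the highest. Its r with Serpina3m was 0.88, and between 0.86 and 0.92 with any 1 liver left out. A dim second probe of Serpina12 read 29.4 to 60.9 units in transgenic livers, against 77.6 to 105 units in wildtype ones, with an adjusted p of 0.469 in limma, and there transgenic liver 2 did not stand apart.

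Serpina1e, an alpha-1-antitrypsin gene, read 409 units in transgenic liver 2, against 20414 to 33464 units in the other 7 livers. The remaining alpha-1-antitrypsin probes varied little, with the highest liver 1.35-fold over the lowest for Serpina1a, 1.19-fold for Serpina1b and 1.17-fold for Serpina1d. Transgenic liver 2 was the lowest for each of them, at 7962, 19490 and 21345 units in that order. For Serpina1d wildtype liver 4 was close to it, at 21643 units. Serpina10, the inhibitor that acts with protein Z, varied 1.14-fold with transgenic liver 2 highest, and Serpina9 was at the floor in 6 of 8 livers. Of the 8 neighbours 2 had a higher or equal and 6 a lower mean log2 signal in transgenic livers, with a median difference of -0.04, and none passed the adjusted threshold in limma. The order with transgenic liver 2 at one end and wildtype livers 2 and 4 at the other was picked after the values were seen. It was read off Serpina3m and Serpina3n, and of the other Serpina probes with a mean above 100 units it held at Serpina11 and the bright Serpina12 probe. Of all 5968 probes above that level it held at 93 (1.56%), these 4 included, and nothing is read from that share.

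**Figure D3:**
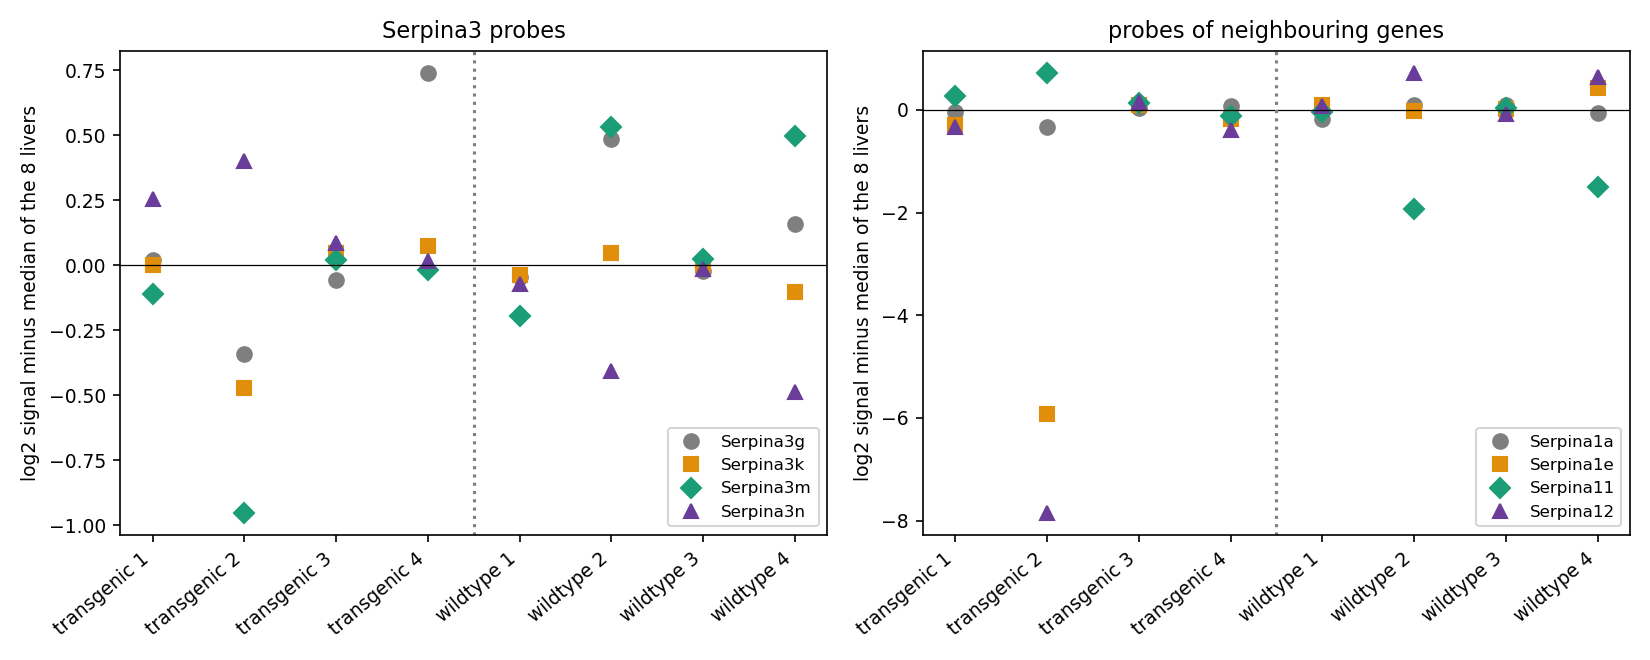
Log2 signal of each liver minus the median of the 8 livers, for 4 Serpina3 probes (left) and for 4 neighbouring genes (right, with a wider scale; Serpina12 is its bright probe); transgenic livers stand left of the dotted line and wildtype livers right of it. Transgenic liver 2 lay at -0.95 for Serpina3m and 0.40 for Serpina3n, and wildtype livers 2 and 4 at 0.53 and 0.495 for Serpina3m.

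By gene order and over all 8 livers, the median absolute r with Serpina3m was larger at its neighbours than further along the chromosome. Within 40 genes of Serpina3m, 13 named probes above 100 units had a median absolute r of 0.72, and 4 of them (30.8%), Serpina3n, Serpina11, Serpina12 and Serpina1e, were over 0.8. Without transgenic liver 2 the r of Serpina1e was 0.52 and those of the other 3 stayed over 0.8 in size. Among the near probes under 0.8, r fell to 0.37 for Serpina1a and to -0.22 for Serpina3k without that liver. It became larger in size with the sign reversed for Serpina1b (-0.675) and Serpina1d (-0.73). The medians are given with that liver only. The other 71 named probes of chromosome 12 had a median of 0.24 with 1 (1.41%) over 0.8. The 2386 named probes of other chromosomes had a median of 0.29 with 20 (0.838%) over 0.8. The 13 near probes include the members Serpina3g, Serpina3k and Serpina3n, which were chosen by their signals in these livers. All of these r values come from the same 8 arrays, and genes are not independent replicates. The difference between near and far probes was not tested, and nothing is read from it.

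Of the 20 named probes with the largest absolute r with Serpina3m, 4 lay on chromosome 12 (Serpina3n, Serpina12, Serpina11 and Serpina1e), against 3.44% of all named probes above 100 units. Without transgenic liver 2 there were also 4, Serpina11, Cipc, Nrde2 and Serpina3n. For Serpina3n the number was 2 over all livers and 1 without wildtype liver 4. For Serpina3k it was 4 over all livers and 0 without transgenic liver 2. The members were chosen by their signals in these livers. Some of them are among the counted probes, so nothing is read from these counts.

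**Figure D4:**
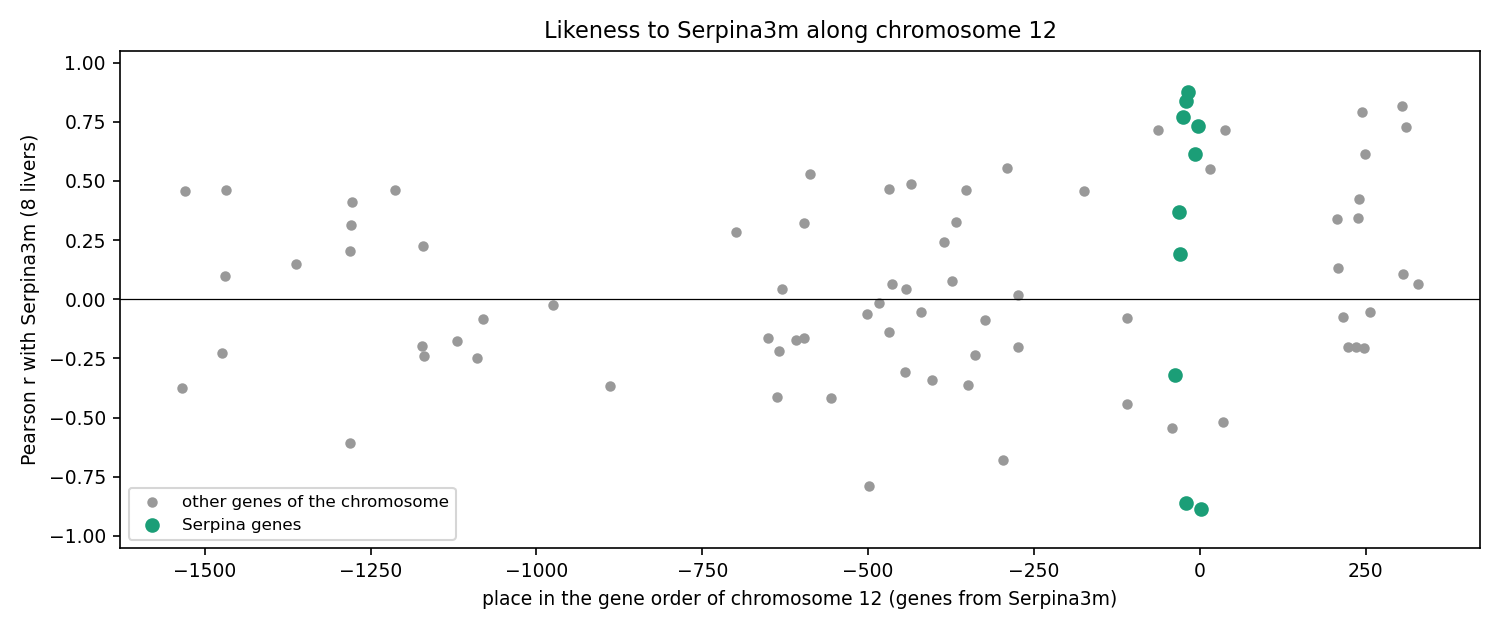
Pearson r of each named chromosome 12 probe above 100 units with Serpina3m over the 8 livers, by place in the gene order counted in genes from Serpina3m; Serpina genes are green and other genes grey. The Serpina genes reach r of 0.88 (Serpina12) and -0.89 (Serpina3n), and the 71 probes beyond 40 genes have a median absolute r of 0.24. Serpina3n belongs to the group chosen by its signals in these livers.

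The genes whose log2 signal was most like that of a member were taken from named probes above 100 units. For Serpina3n they were Serpina11 (r = 0.94), Snf8 (0.93), a subunit of the endosomal sorting complex, Gpcpd1 (0.91), a glycerophosphocholine phosphodiesterase, and the kinase Akt2 (0.90). Without wildtype liver 4, Serpina11 stayed among the nearest 4 at 0.92, beside Tmem51 (0.97), Ccnd1 (0.93), which encodes cyclin D1, and the histone methyltransferase gene Ehmt1 (0.92). For Serpina3m they were Gatad2b (0.91), Eif6 (0.89), Lrsam1 (0.88) and Serpina12 (0.88). Without transgenic liver 2 none of those was among the nearest 4, which became Cish (0.94), Cxcl9 (0.92), Nsmf (0.89) and Dexi (0.88).

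Cish is a feedback inhibitor of growth hormone and cytokine signalling through STAT5, and Cxcl9 is an interferon-induced chemokine. Cish read 289, 209, 208 and 229.7 units in transgenic livers 1 to 4, against 156, 766, 344 and 629 units in wildtype livers 1 to 4. Wildtype livers 2 and 4 were its highest, as for Serpina3m, but transgenic liver 2 was not its lowest. Cxcl9 had wildtype livers 2 and 4 highest as well, at 637 and 420.1 units, against 272 to 381 units in transgenic livers and 207 and 355 units in wildtype livers 1 and 3. Both genes were picked for their likeness to Serpina3m without transgenic liver 2. That choice itself favours high values in wildtype livers 2 and 4, so nothing is read from the shared high end.

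For Serpina3k the nearest were Eef2 (0.94), Serpina1e (0.92), Serpina12 (0.92) and Leng9 (0.91), each of which had transgenic liver 2 as its lowest. A choice by r with Serpina3k itself favours a low value there. Without that liver they were Slc38a4 (0.98), an amino acid transporter gene, Tex261 (0.98), Rps12 (0.97) and Mtmr12 (0.97). For Serpina3g they were the circadian regulator gene Clock (0.94), Mnat1 (0.92), the autophagy receptor gene Sqstm1 (0.91) and Gpat3 (0.89), and without transgenic liver 4 they were Rps21 (0.95), Ppp2r5a (0.93), Mgat4b (0.93) and Bcas3 (0.92). No gene of the first 4 remained among the second 4 for Serpina3k or Serpina3g, so their nearest genes changed with 1 liver left out.

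**Figure D5:**
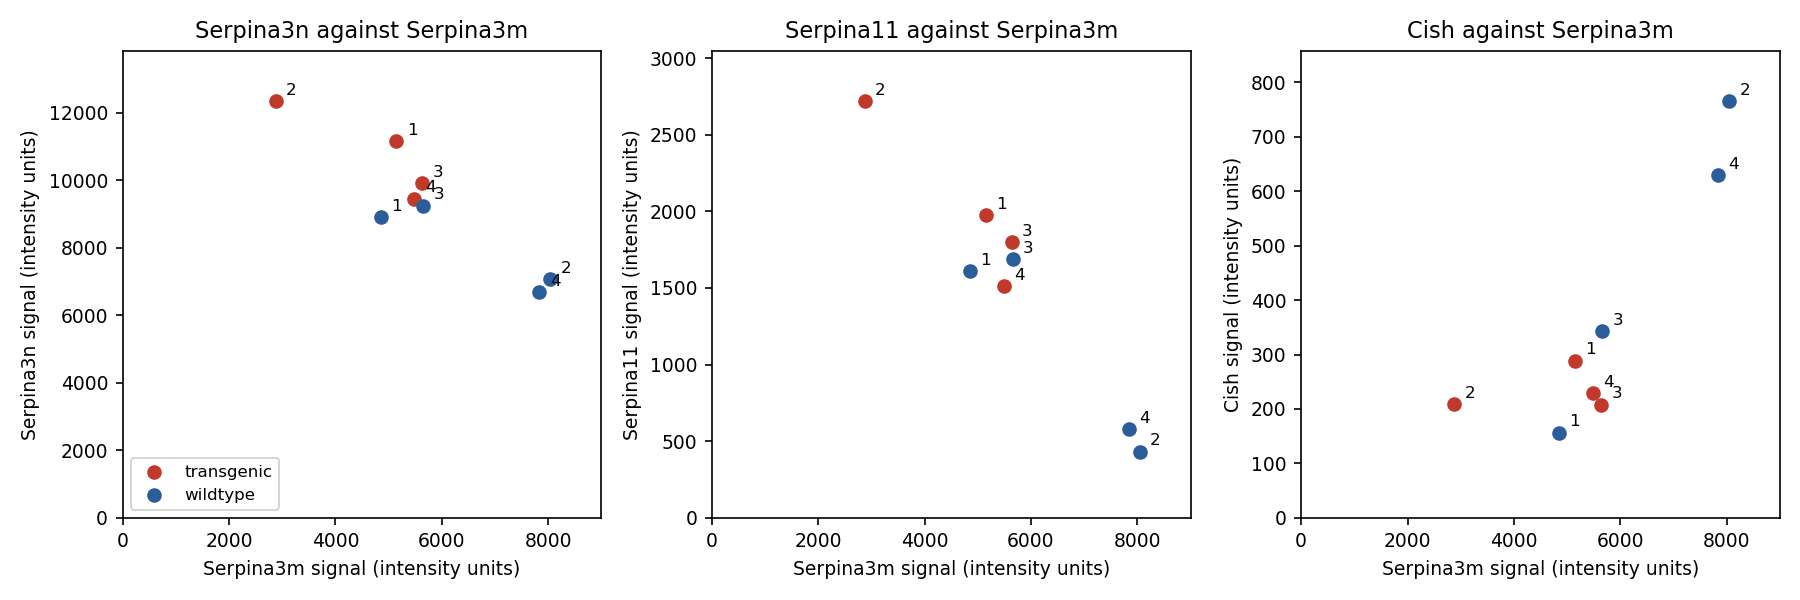
Signal of Serpina3n, Serpina11 and Cish (vertical axes) against that of Serpina3m (horizontal axis), in intensity units on linear scales; red points are transgenic and blue points wildtype livers, numbered by animal. Wildtype livers 2 and 4 sit at the high end of Serpina3m with 7066 and 6683 units of Serpina3n, 431 and 579 units of Serpina11 and 766 and 629 units of Cish. Cish was picked for its likeness to Serpina3m without transgenic liver 2.

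Genes of the signals known to act on antichymotrypsins, and of the proteases these inhibit, were read beside the members from lists. Over all tested probes the median log2 difference was -0.015 and 46.7% were higher in transgenic livers. No listed gene passed the adjusted threshold in limma. Of 26 acute phase protein genes 6 had a tested probe. The mean log2 signal was higher in transgenic livers at 4 and lower at 2, with a median difference of 0.02. Mt1, which encodes the metal-binding protein metallothionein, averaged 12848 ± 5418 units in transgenic livers, against 6014 ± 2470 units in wildtype ones (SD, n = 4 each), with an adjusted p of 0.644 in limma and 1 wildtype value, 8524 units, inside the transgenic range. Saa1, a serum amyloid A gene that marks a strong acute phase response, averaged 743 ± 303 units in transgenic livers, against 839.5 ± 113 units in wildtype ones (SD, n = 4 each; adjusted p = 0.809 in limma). Its highest value, 1189.9 units, was that of transgenic liver 2. The other transgenic livers read 533 to 673 units, below the lowest wildtype value of 691 units. Cp, which encodes the copper carrier ceruloplasmin, averaged 295 ± 63.4 units in transgenic livers, against 245 ± 37.9 units in wildtype ones (SD, n = 4 each; adjusted p = 0.809 in limma). Orm1 and Crp, which encode orosomucoid and C-reactive protein, had near-equal means, for Crp 12124 ± 1227 units in transgenic livers, against 11853 ± 385 units in wildtype ones (SD, n = 4 each).

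Of 21 genes of acute phase signalling 8 were tested, their log2 differences 4 above and 4 below 0, and the median was 0.05, or -0.05 without transgenic liver 4. Stat3, the transcription factor that carries the interleukin-6 signal, read 1884, 1814, 1749 and 1485 units in transgenic livers 1 to 4, against 1369, 1554, 1437 and 1412 units in wildtype livers 1 to 4. Only transgenic liver 4 lay within the wildtype range, and the adjusted p was 0.666 in limma. Irf1, an interferon-induced transcription factor, averaged 566 ± 60.1 units in transgenic livers, against 435 ± 49.1 units in wildtype ones (SD, n = 4 each). Its groups did not overlap, with an adjusted p of 0.606 in limma. The interleukin-6 receptor subunit Il6st was at the floor in 4 livers.

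Of 13 growth hormone and STAT5 genes 6 were tested, their log2 differences 1 above and 5 below 0, and the median was -0.15. The 1 above 0 was Socs2. It averaged 674 ± 365 units in transgenic livers, against 480 ± 194 units in wildtype ones (SD, n = 4 each; adjusted p = 0.809 in limma). Its highest value, 1197 units, was that of transgenic liver 4. Beside Cish (adjusted p = 0.783 in limma), Onecut1, a hepatocyte transcription factor, averaged 39.0 ± 7.41 units in transgenic livers, against 56.3 ± 12.9 units in wildtype ones (SD, n = 4 each; adjusted p = 0.684 in limma). Igfals encodes a subunit of the plasma complex that carries insulin-like growth factor. It averaged 3775 ± 862 units in transgenic livers, against 4325 ± 648 units in wildtype ones (SD, n = 4 each). Its adjusted p was 0.809 in limma. Of 18 protease genes 6 were tested, their log2 differences 5 above and 1 below 0, and the median was 0.16. Most of them were dim, and the median was 0.05 after normexp correction, 0.10 without transgenic liver 3 and 0.09 without wildtype liver 4. The neutrophil elastase gene Elane was at the floor in 5 livers, Ctsl in 2, Klk1 in 2 and the chymase gene Cma1 in 1. Klk1, the tissue kallikrein gene, read 13.9 to 29.0 units, while Klkb1, the separate plasma prekallikrein gene, read 5601 to 6657 units. Of 13 serpin genes of other clades 5 were tested, 2 higher and 3 lower. The 3 with the smallest p, Serpinh1, Serpinc1 and Serpinb6a, which encode a collagen chaperone, antithrombin and an intracellular serpin, had adjusted p of 0.809, 0.929 and 0.938 in limma.

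Markers of other liver cell types are given because Serpina3g is also a leukocyte gene and Serpina3n is made by several cell types. Of 10 macrophage markers 5 had a probe. Their summed signal was 542 to 955 units in transgenic livers, against 561 to 962 units in wildtype ones. The highest transgenic sum was that of transgenic liver 2. C1qa, a complement subunit made by Kupffer cells, read 397 units in that liver and 262 to 308 units in the other transgenic livers. Wildtype livers had 294 to 512 units of C1qa. C1qb, of the same complement component, read 446.5 units in transgenic liver 2 and 213 to 265 units in the other transgenic livers. Wildtype livers had 212 to 384 units of C1qb. Lyz2 and Cd68 were at the floor in 7 livers each. The only T cell marker with a named probe, Cd3e, read 5.3 to 26.4 units in transgenic livers, against 3.9 to 16.2 units in wildtype ones, and it was at the floor in 6 livers. The 3 tested of the 4 neutrophil markers with a probe together gave 25.7 to 78.4 units in transgenic livers, against 27.4 to 80.1 units in wildtype ones. Of these, S100a9 and Retnlg were at the floor in 4 livers each. The part of these cells in the signal of Serpina3g was not tested.

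Endothelial markers had a summed signal of 216 to 369.9 units in transgenic livers, against 336 to 477 units in wildtype ones, with 3 of 9 measured, all 3 with a lower mean log2 signal in transgenic livers. The smallest adjusted p of the 3 was that of Emcn, 0.697 in limma, beside 0.754 for Egfl7 and 0.781 for Pecam1. Pecam1, an adhesion molecule of endothelial junctions, averaged 44.9 ± 32.4 units in transgenic livers, against 84.0 ± 38.7 units in wildtype ones (SD, n = 4 each). Of 8 stellate cell and fibroblast markers 7 had a probe and 5 were tested. The tested 5 summed to 7488 to 8358 units in transgenic livers, against 7923 to 8458 units in wildtype ones. Lrat, which stores vitamin A in stellate cells, averaged 277 ± 49.4 units in transgenic livers, against 378 ± 14.8 units in wildtype ones without overlap (SD, n = 4 each; adjusted p = 0.592 in limma). Timp2, a metalloprotease inhibitor gene, had an adjusted p of 0.754 in limma, and Col1a2, a collagen gene, was at the floor in 7 livers. Among hepatocyte markers, Ass1, a urea cycle enzyme, averaged 20561 ± 3307 units in transgenic livers, against 16123 ± 1236 units in wildtype ones (SD, n = 4 each; adjusted p = 0.690 in limma). The median log2 differences were -0.48 for the endothelial, -0.03 for the stellate cell, -0.04 for the macrophage, 0.11 for the neutrophil and 0.18 for the 2 measured hepatocyte markers. The neutrophil median was 0.003 after normexp correction and -0.165 to 0.252 with 1 liver left out, and the macrophage median was -0.091 to 0.098 with 1 liver left out, so neither has a settled direction. The endothelial median was -0.27 after normexp correction. The part of these cell types in the Serpina3n and Serpina3m values was not tested. The bile duct marker Spp1 lay between 168 and 255 units in transgenic and between 179 and 247 units in wildtype livers.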

How the data were processed

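Liver RNA of 8 mice was amplified, labelled with biotin and hybridised to 1-colour Illumina bead arrays, per the labels' protocols. The values deposited by the authors are 1 intensity per probe and liver, already background-subtracted. BeadStudio 1.5.1.3 is the tool in the submitters' processing notes, but no label or header says if the arrays had been normalized between each other. Another table has 64 value columns that no label ties to an animal, and it was not used.

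Groups follow the labelled strain. Animal numbers only name samples and pair none. Sample titles of transgenic animal 4 begin differently from those of transgenic animals 1 to 3, and wildtype titles have a beginning of their own, with no meaning stated. Since the groups share no such beginning, a difference by genotype cannot be told apart from whatever the beginnings stand for. Litters are not described, so p-values cover the spread among these 8 animals alone.

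Values were floored at 16 and logged to base 2. Probes with a mean log2 above the lower quartile (4) were compared in R 4.3.3 with limma 3.58.1 (lmFit and eBayes, two-sided, Benjamini-Hochberg over 14759 probes, threshold 0.05), after a test on simulated data. Means and SDs are of linear intensities, and folds come from the log2 scale, where the floor understates changes of dim probes. Precision is limited by having 4 arrays a group. Of 9523 numbers in probe identifiers 8884 (93.3%) were Gene IDs in the RefSeq table, against 45.6% to 48.6% after shifting them by 1 to 3.

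Members and gene lists were chosen with earlier results of these data known. Named genes were the members, all measured Serpina neighbours, the 4 genes most like each member with and without the liver farthest from its median, and the 3 of smallest p in each list, with a gene of several probes counted by its brightest. Orm1, Crp, Socs2, Klk1 and Elane as a protease were named after their values were seen, as were the order shared by 3 livers and overlap under other scalings. Alternatives were other scalings, floors, background correction, filters and variance models, and each liver left out.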

Additional observations from a re-analysis of the deposited data

Results flagged for a closer look

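In groups of 4 livers, a value was singled out when its gap to the nearest of the other 3 made up more than 0.829 of the group's range (Dixon's 95% limit). Chance gives this in about 1 of 20 groups. Of 137 groups over 71 probes 14 met it, but the probes include genes picked for running with a member, and 6 of the 14 are such genes, so the count is not to be set against chance. Among the members it was met by Serpina3k alone, in transgenic liver 2, at 15251 units against 21165 to 22235 units in the other transgenic livers. That liver was also apart for 2 genes picked for their likeness to Serpina3k or Serpina3m over all livers, a choice that itself favours a low value there, Eef2 at 88.1 units against 133 to 137 units and Gatad2b at 140.1 units against 199 to 208 units.

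Transgenic liver 4, the highest for Serpina3g, was apart among transgenic livers for Clock at 388 units against 247 to 271 units and for Mnat1 at 225 units against 174 to 179 units, both picked for their likeness to Serpina3g over all livers, and for Nsmf, picked for Serpina3m, at 2203 units against 2045 to 2071 units. It was apart too for Emcn at 141.7 units against 83.9 to 93.2 units. Transgenic liver 3 was apart for Klkb1 at 6657 units against 5683 to 5769 units. In the wildtype group, liver 2 was apart for Klkb1 at 5601 units against 6562 to 6579 units and for Bcas3, picked for Serpina3g, at 2006 units against 1694 to 1716 units. At 4 probes the other transgenic livers were all below the floor of 16 units, where values have no order, so that only 1 measured value stands behind each: Il6st at 184 units in transgenic liver 4 (others -29.6 to -7.9), Cd3e at 26.4 units in transgenic liver 4 (others 5.3 to 8.5), Elane at 41.9 units in transgenic liver 3 (others 7.3 to 12.8) and Col1a2 at 19.5 units in transgenic liver 1 (others -2.2 to 1.1). The part of single arrays in these values was not tested.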

How the results depend on the processing

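Of the 11 other settings, 6 (floors, filters and the variance model) cannot move the log2 difference of a bright probe and say nothing on stability. Under the other 5 (scalings, normexp and array weights) Serpina3n lay between 0.43 and 0.47 and Serpina3m between -0.57 and -0.44, and with any 1 liver left out between 0.35 and 0.51 and between -0.62 and -0.25. Serpina3g lay between -0.12 and -0.02 under the other settings and between -0.27 and 0.09 with 1 liver left out, and Serpina3k between -0.14 and -0.03 and between -0.12 and 0.06. No probe passed the adjusted threshold of limma as reported; 1 did after quantile normalization, with medians aligned, with a floor of 32 and with array weights, 2 after normexp with an offset of 50 and with a trended robust variance, and 0 to 1 with 1 liver left out. The count of unadjusted p under 0.05, 1006 as reported, was 663 when only probes with a mean signal over 100 were tested, which are fewer, and 878 to 1364 with 1 liver left out. The median of the stellate cell list was -0.03 as reported and -0.103 to -0.009 with 1 liver left out. The medians of 4 other lists lay on both sides of 0 with 1 liver left out, with ranges of -0.165 to 0.252 for neutrophil markers (0.003 after normexp), -0.091 to 0.098 for macrophage markers, -0.05 to 0.103 for acute phase signalling and -0.02 to 0.044 for serpins of other clades. After normexp the protease median was 0.05 against 0.16 and the endothelial median -0.27 against -0.48. The acute phase protein median ran from 0.003 to 0.089 with 1 liver left out. Without transgenic liver 2, the r of Serpina3m was -0.675 against 0.37 with Serpina1b, -0.73 against 0.19 with Serpina1d, 0.37 against 0.77 with Serpina1a, 0.52 against 0.84 with Serpina1e and -0.95 against -0.86 with Serpina11. Without wildtype liver 4, the r of Serpina3n with Serpina1d was -0.45 against 0.04. Beyond the settings' own construction the cause was not tested. No paired analysis was possible because the labels give no replicate numbers that the groups share. Values below the floor, as at Serpina3a, have no order.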
